A study of Nicotiana tabacum with 6 samples.

Results

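Overexpression of sunflower HSFA9 (A9) in tobacco seeds was compared here with nontransgenic (NT) sibling seeds, gene by gene, on the transcripts of seeds imbibed for 24 h in darkness. The deposited list of A9-induced transcripts holds 4754 entries of 2 lines each, 1 line for seeds and 1 for seedlings. The seed line of each gene was used, 1 entry that pairs different identifiers was left out, and 4753 of the 31764 genes in all deposited seed and seedling lists remained. Of these, 295 genes (6.21% of the list) reached 5 FPKM (fragments scaled to transcript length and library size) in the higher of the 2 libraries, the minimum chosen for a well-measured gene. The results below are about these 295 genes.

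The DS10:A9 seeds carried the sunflower factor under the DS10 promoter, which is active in seeds, in Nicotiana tabacum var. Xanthi. The NT seeds came from sibling lines that had lost the transgene by segregation, were taken at the same time of imbibition (1 day) and had no A9 transgene. By the study's account imbibed tobacco seeds, NT ones included, also express an A9 of their own. Each condition was represented by 1 library, made from an equal mixture of 4 RNA samples from 3 pairs of homozygous lines with the transgene at different single positions, so that these values hold no spread between plants or lines. A DS10:A4a seed library and a second NT seed library, deposited in separately normalized lists, served for a side-by-side view of the same genes.

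Heat stress factors are transcription factors that bind heat stress elements in the promoters of genes for chaperones and other protective proteins. A9 differs from most members of the family in that it acts in maturing seeds without any heat, and the small heat shock proteins (sHSPs) that accumulate then are kept through drying and early imbibition. In imbibed seeds stored transcripts are progressively replaced as metabolism, respiration and light perception resume before the radicle emerges.

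The genes of the list had been chosen by the authors on these same libraries, by a log2 fold of 0.6 or more (about 1.5 times) in DS10:A9 seeds and also in 35S:A9 seedlings. A higher value in DS10:A9 than in NT seeds was therefore fixed by that choice for all 295 genes and is not a result; what the values add is how high each transcript stood, by how much it differed, and which products were involved. Genes that were lower in DS10:A9 seeds, or that did not differ, are not in this list and were not analysed here. Because the libraries are whole-seed RNA, more cells with a transcript and more transcript per cell cannot be told apart.

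The 2 libraries had similar depths, at 11650000 fragments for DS10:A9 seeds and 11340000 fragments for NT seeds, as recovered from the steps in the low FPKM values. At this depth a transcript of 1000 bases at 5 FPKM rests on about 54.5 fragments in the DS10:A9 library. For each log2 fold an exact binomial (Clopper-Pearson) 95% interval was computed from the fragments of both libraries. These intervals cover counting error only, not differences between plants, lines or library preparations. They were not adjusted for the authors' choice of the genes by their fold in these same libraries.

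Across the 295 genes, the median level was 9.07 FPKM in DS10:A9 seeds and 4.60 FPKM in NT seeds. The median log2 fold was 0.85, the middle 50% of genes lay between 0.70 and 1.12, and the extremes were 0.59 and 7.28. Of the genes above 0 in NT seeds, 99.3% of the whole list had a log2 fold of at least 0.6. The folds of the well-measured genes lay mostly just above the authors' threshold, since 8 genes lay just under 0.6, 182 lay from 0.6 to under 1, 84 from 1 to under 2, and 21 at 2 or more. Thus 105 genes (35.6%) had a log2 fold of at least 1, against 59.2% of the 2963 genes of the whole list that were above 0 in NT seeds. A log2 fold of at least 2 was seen in 7.12% of the well-measured genes, against 13.9% of the same 2963 genes. The counting interval lay above 0 for 252 of the 295 genes (85.4%), against 20.7% of all 4753 genes, of which 3313 were under 1 FPKM in both libraries. The choice of genes fixed the sign of these folds, so the shares describe how well single genes were counted.

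**Figure D1:**
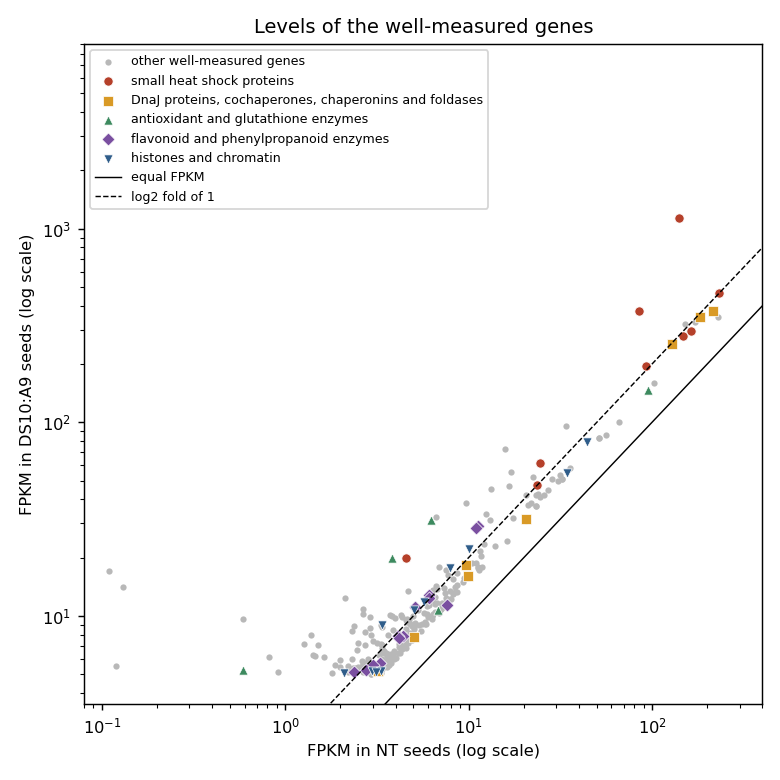
FPKM in DS10:A9 seeds (vertical, log scale) against FPKM in NT seeds (horizontal, log scale) for the 295 well-measured genes, 1 point a gene; the solid line marks equal values, the dashed line a log2 fold of 1, and 5 gene lists are coloured. The small heat shock proteins hold the upper right, with the highest point at 1133 FPKM in DS10:A9 seeds and 139.9 FPKM in NT seeds, while points far to the left at low NT levels have the largest folds.

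The levels were concentrated in few genes. The 10 genes highest in DS10:A9 seeds made up 46.3% of the summed FPKM of all 295. Only 14 genes stood at 100 FPKM or more, 16 between 50 and 100, and 163 between 5 and 10. The median log2 fold changed little with level, with 0.93 at 100 FPKM or more, 0.74 between 50 and 100 FPKM and 0.85 between 5 and 10 FPKM. A described protein product was deposited for 195 of the genes, with a median log2 fold of 0.85, and the median of the other 100 genes was 0.84. Counts of well-measured members in each gene list below are to be read beside 6.21% of all genes of the A9 list.

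The sHSPs, which hold unfolding proteins in a soluble state until other chaperones can refold them, were the most abundant products. Of 10 sHSP genes in the list, 9 were well measured. All 9 had counting intervals above 0, beside 85.4% of all 295 genes, and 7 had a log2 fold of at least 1, beside 35.6%. Their median log2 fold was 1.08 (1.73 with genes of the same description counted once), beside 0.85 for all well-measured genes, and their summed level was 2874 FPKM in DS10:A9 seeds and 912 FPKM in NT seeds. The 26.5 kDa mitochondrial sHSP gene_25232 alone stood at 1133 FPKM in DS10:A9 seeds and 139.9 FPKM in NT seeds (log2 fold 3.02, counting interval 2.94 to 3.09), the highest level of all 295 genes.

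The sHSPs did not differ by the same factor. The second mitochondrial 26.5 kDa gene, gene_81743, had 47.4 FPKM in DS10:A9 seeds and 23.6 FPKM in NT seeds, with a log2 fold of 1.01 (0.80 to 1.21) whose interval lies apart from that of gene_25232. Among the cytosolic class I genes, gene_26623 had 376 FPKM in DS10:A9 seeds and 84.8 FPKM in NT seeds (log2 fold 2.15, 2.02 to 2.28). The 3 genes described as 18.2 kDa class I proteins were more even, with log2 folds of 0.91 to 1.08. Of these, gene_79900 stood at 465 FPKM in DS10:A9 seeds and 232 FPKM in NT seeds, gene_2804 at 279 FPKM in DS10:A9 seeds and 148 FPKM in NT seeds, and gene_66148 at 196 FPKM in DS10:A9 seeds and 92.4 FPKM in NT seeds. The class II gene_24514 had the smallest fold of the group, with 297 FPKM in DS10:A9 seeds and 162 FPKM in NT seeds (log2 fold 0.87). The lowest member, the class IV gene_67564, whose class is directed to the endoplasmic reticulum, had 19.9 FPKM in DS10:A9 seeds and 4.55 FPKM in NT seeds (log2 fold 2.13). The 22.0 kDa gene_28690 lay between them with 61.8 FPKM in DS10:A9 seeds and 24.6 FPKM in NT seeds.

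Among cochaperones and foldases, 3 genes reached levels near those of the sHSPs, and the others stood lower, at 5.17 to 31.5 FPKM in DS10:A9 seeds. The list of DnaJ proteins, cochaperones, chaperonins and foldases had 9 well-measured members of 19, with a median level of 18.2 FPKM in DS10:A9 seeds, beside 279 FPKM for the sHSPs. Their log2 folds ran from 0.62 to 0.99 with a median of 0.70, so the upper ones overlapped with the smallest folds of the sHSPs. Both genes for BAG family regulator 6, a protein with a domain that binds HSP70, were among the 5 highest described transcripts. Of these, gene_74413 had 377 FPKM in DS10:A9 seeds and 215 FPKM in NT seeds, and gene_70529 had 352 FPKM in DS10:A9 seeds and 184 FPKM in NT seeds. Their log2 folds of 0.81 (0.77 to 0.85) and 0.94 (0.90 to 0.97) differed little, but by more than the counting error.

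A further cochaperone-like transcript, gene_23903, has no protein name and is annotated in the deposited list with the orthology group of cytosolic prostaglandin-E synthase, the family of the HSP90 cochaperone p23. It had 254 FPKM in DS10:A9 seeds and 128 FPKM in NT seeds (log2 fold 0.99, 0.90 to 1.08), the highest level of any gene without a described product. The HSP90-binding cyclophilin CYP40 (gene_619) had 18.2 FPKM in DS10:A9 seeds and 9.65 FPKM in NT seeds. The beta subunit of the cytosolic chaperonin (gene_13374) had 16.0 FPKM in DS10:A9 seeds and 9.86 FPKM in NT seeds. The gene_39269, with no name in its seed line, is described as the mitochondrial chaperonin CPN60-2 in its seedling line and stood at 85.9 FPKM in DS10:A9 seeds and 56.1 FPKM in NT seeds, outside the list. The mitochondrial DnaJ protein gene_6173, which hands unfolded proteins to HSP70, had 31.5 FPKM in DS10:A9 seeds and 20.6 FPKM in NT seeds.

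Large chaperones stood below most sHSPs. Of 5 genes named as HSP70, HSP90 or ClpB proteins, 3 were well measured, with log2 folds from 0.69 to 0.97. Both well-measured genes described as Mediator subunit 37a, a name that HSP70-family proteins share in plants, carry the orthology annotation of the HSP70 of the endoplasmic reticulum. Of this pair, gene_6664, a luminal-binding protein by its seedling line, had 83.1 FPKM in DS10:A9 seeds and 51.3 FPKM in NT seeds (log2 fold 0.70, 0.48 to 0.91). The other, gene_60513, had 44.9 FPKM in DS10:A9 seeds and 27.0 FPKM in NT seeds (0.73, 0.55 to 0.92). The ClpB-type disaggregase gene_16507 had 57.8 FPKM in DS10:A9 seeds and 35.9 FPKM in NT seeds, and a second mitochondrial ClpB gene, gene_16526, had 11.5 FPKM in DS10:A9 seeds and 6.52 FPKM in NT seeds. The HSP90-type gene_36751 had 12.4 FPKM in DS10:A9 seeds and 6.34 FPKM in NT seeds. Among regulators of the heat response, only the coactivator MBF1c (gene_84717) was well measured, with 42.6 FPKM in DS10:A9 seeds and 24.02 FPKM in NT seeds (log2 fold 0.83, 0.58 to 1.08). The only gene of the list described as a heat stress factor was low, with 0.45 FPKM in DS10:A9 seeds and 0.09 FPKM in NT seeds. The sunflower A9 transgene is not among the listed genes, so its own transcript level could not be checked.

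**Figure D2:**
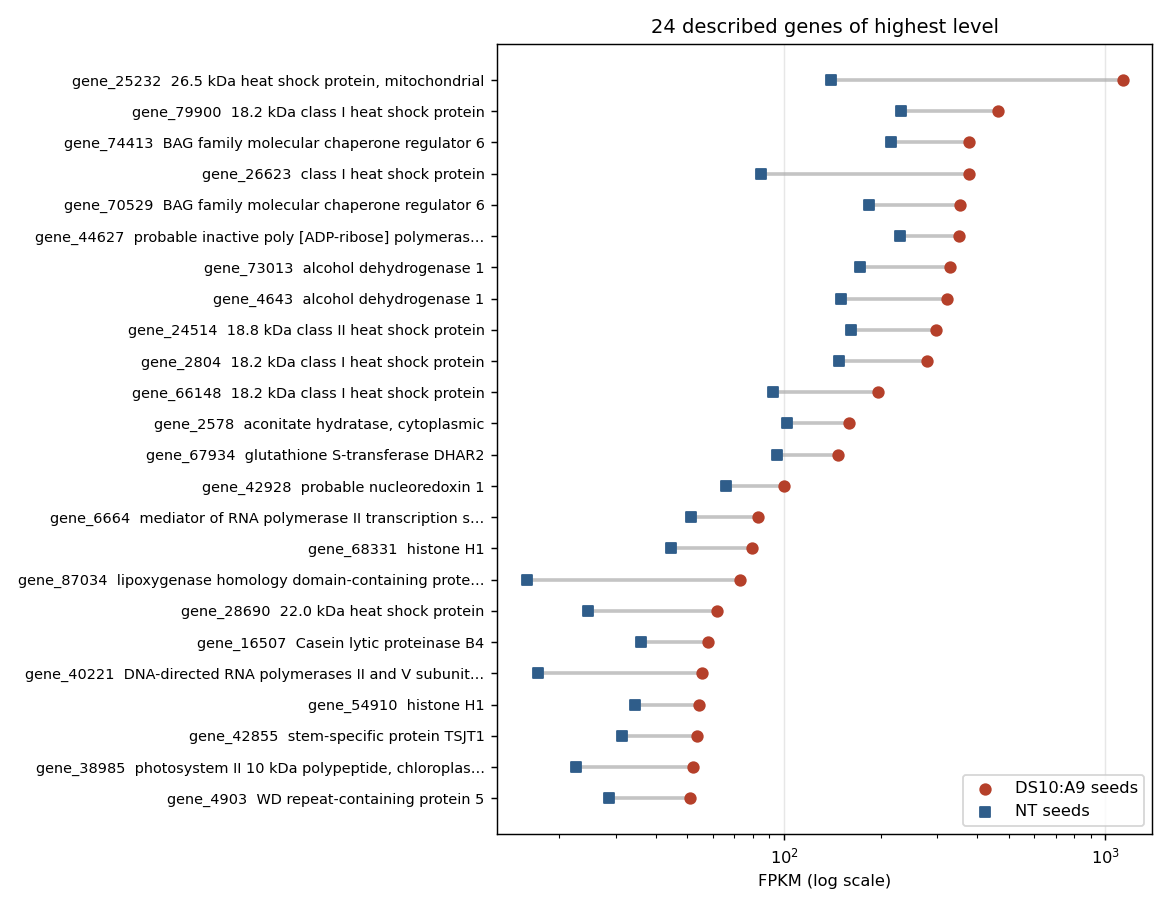
FPKM (log scale) in DS10:A9 seeds (circles) and NT seeds (squares) for the 24 described genes with the highest level in DS10:A9 seeds, from highest to lowest. The longest gaps are those of gene_25232, gene_26623, gene_87034 and gene_40221; most other pairs lie a log2 fold of 0.6 to 1 apart.

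Redox enzymes differed widely in fold and level. The antioxidant and glutathione list had 5 well-measured genes of 13, with log2 folds from 0.63 to 3.16 and a median of 2.33, which became 1.501 at a minimum of 10 FPKM or with genes of the same description counted once. Ascorbate peroxidase removes hydrogen peroxide with ascorbate, and dehydroascorbate reductase regenerates that ascorbate with electrons from glutathione. The 2 genes for cytosolic ascorbate peroxidase 2 had nearly the same fold: gene_79769 stood at 31.3 FPKM in DS10:A9 seeds and 6.20 FPKM in NT seeds (log2 fold 2.33, 1.99 to 2.68), and gene_15689 at 19.99 FPKM in DS10:A9 seeds and 3.80 FPKM in NT seeds (2.40, 1.97 to 2.84). The dehydroascorbate reductase DHAR2 (gene_67934) was far more abundant, with 147 FPKM in DS10:A9 seeds and 95.2 FPKM in NT seeds, at a log2 fold of 0.63. A glutathione S-transferase, gene_68297, had 5.26 FPKM in DS10:A9 seeds and 0.59 FPKM in NT seeds, a log2 fold of 3.16 that rests on 9 fragments in the NT library (2.17 to 4.34). The fifth gene of the list, the thioredoxin H gene_17966, had 10.8 FPKM in DS10:A9 seeds and 6.78 FPKM in NT seeds (log2 fold 0.67, 0.02 to 1.299). Nucleoredoxin 1 (gene_42928), a disulphide reductase of the thioredoxin superfamily, had 99.8 FPKM in DS10:A9 seeds and 66.0 FPKM in NT seeds. SRO5 (gene_44627), known from Arabidopsis for a role in oxidative and salt stress, had 350.1 FPKM in DS10:A9 seeds and 229.8 FPKM in NT seeds (log2 fold 0.61, 0.56 to 0.66), so it was abundant in both kinds of seed.

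Enzymes of the raffinose family of sugars, soluble sugars that seeds store and break down on imbibition, had 4 well-measured members of 10 and a median log2 fold of 1.88, which became 1.26 at a minimum of 10 FPKM or with genes of the same description counted once. They belong to both directions of the pathway. The 2 galactinol-sucrose galactosyltransferase genes, whose enzyme makes raffinose, had log2 folds of 2.55 (1.66 to 3.57, gene_46029) and 2.49 (1.93 to 3.06, gene_46027). The alpha-galactosidases, which remove galactose from such sugars, stood higher with smaller folds: gene_19041 had 31.2 FPKM in DS10:A9 seeds and 13.0 FPKM in NT seeds, and gene_66200 had 13.9 FPKM in DS10:A9 seeds and 7.38 FPKM in NT seeds.

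A few transcripts of fermentation and central carbon metabolism were abundant. Alcohol dehydrogenase 1 regenerates NAD+ when oxygen is short, as it can be inside imbibing seeds. Its gene_73013 had 329 FPKM in DS10:A9 seeds and 173 FPKM in NT seeds (log2 fold 0.93, 0.86 to 1.00), and gene_4643 had 321 FPKM in DS10:A9 seeds and 150.4 FPKM in NT seeds (1.09, 1.03 to 1.16). Of 38 genes for sugar, starch and central carbon metabolism in the list, 5 were well measured, all with log2 folds under 0.8 (median 0.67, or 1.06 at a minimum of 1 FPKM). They were cytoplasmic aconitase (gene_2578) at 159 FPKM in DS10:A9 seeds and 102 FPKM in NT seeds, both sucrose synthase genes (gene_81189 and gene_68759), which cleave sucrose, phosphoenolpyruvate carboxylase (gene_13141) and a chloroplast malate dehydrogenase (gene_39274). The last of these stood at 8.95 FPKM in DS10:A9 seeds and 5.36 FPKM in NT seeds. A glycolytic gene that its name placed among the kinases, ATP-dependent 6-phosphofructokinase (gene_36900), had a larger fold, with 7.92 FPKM in DS10:A9 seeds and 3.63 FPKM in NT seeds (log2 fold 1.13, 0.74 to 1.51). The gene model of aconitase is only 308 bases long, so its FPKM may stand for a fragment of the transcript.

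Mitochondrial respiration had 3 well-measured genes of 12 (25%, beside 6.21% of all genes of the A9 list), all with log2 folds above 1, beside 35.6% of all well-measured genes at 1 or more. The 2 genes for subunit 9 of the cytochrome b-c1 complex, which passes electrons from ubiquinol to cytochrome c, differed from each other: gene_19949 had 32.4 FPKM in DS10:A9 seeds and 6.67 FPKM in NT seeds (log2 fold 2.28, 1.71 to 2.88), while gene_60926 had 17.2 FPKM in DS10:A9 seeds and 7.50 FPKM in NT seeds (1.201, 0.87 to 1.53). The external NAD(P)H dehydrogenase NDB2 type gene_12367, which feeds electrons into the chain without pumping protons, had 13.7 FPKM in DS10:A9 seeds and 6.75 FPKM in NT seeds. Products described as mitochondrial numbered 9 among the well-measured genes (median log2 fold 0.82), and those described as chloroplastic numbered 13 (median 0.77). This grouping by organelle was made after the descriptions of the genes had been seen.

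Chromatin proteins had 11 well-measured genes of 36 (30.6%), with a median log2 fold of 1.045. The counting interval reached 0 for 2 of them, beside 43 of all 295 genes. Linker histone H1, which binds the DNA between nucleosomes, was the most abundant: gene_68331 had 79.3 FPKM in DS10:A9 seeds and 44.4 FPKM in NT seeds, and gene_54910 had 54.6 FPKM in DS10:A9 seeds and 34.4 FPKM in NT seeds. The core histones named as such stood lower with larger folds. Both histone H2B genes (gene_6783 and gene_58875), histone H3.2 (gene_63552) and histone H2AX (gene_17561) had log2 folds from 1.14 to 1.42, at 5.04 to 22.1 FPKM in DS10:A9 seeds and 2.10 to 10.04 FPKM in NT seeds. Both genes that have no protein name but the orthology annotation of histone H4, outside the list, had smaller folds. Of these, gene_15234 had 17.9 FPKM in DS10:A9 seeds and 11.9 FPKM in NT seeds (log2 fold 0.59, 0.18 to 1.001), and gene_6782 had 7.98 FPKM in DS10:A9 seeds and 4.51 FPKM in NT seeds (0.82, 0.25 to 1.44). Histone deacetylase 19 (gene_9030), a corepressor subunit, had 11.7 FPKM in DS10:A9 seeds and 5.69 FPKM in NT seeds. Genes of the cell cycle, replication and repair had 3 well-measured members of 67 (4.48%, beside 6.21% of all genes of the list), none at a log2 fold of 1. At a minimum of 1 FPKM their median log2 fold was 0.92, and that of the chromatin genes 0.88.

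In the list for transcription, splicing and RNA processing, 11 genes of 61 were well measured (18%, beside 6.21% of all genes of the A9 list), with a median log2 fold of 0.89. The 2 genes for subunit 6B of RNA polymerases II and V stood out: gene_40221 had 55.7 FPKM in DS10:A9 seeds and 17.1 FPKM in NT seeds (log2 fold 1.70), and gene_40196 had 38.3 FPKM in DS10:A9 seeds and 9.68 FPKM in NT seeds (1.98). Both cleavage and polyadenylation factor subunit 5 genes, gene_81893 and gene_9218, which help to choose where transcripts end, had log2 folds of 0.82 and 0.89. The list also holds, by their names, the Mediator subunit 37a genes described above with the chaperones. Translation initiation factor 2D (gene_8878) was the only well-measured gene of 28 for ribosomal proteins and translation, with 17.9 FPKM in DS10:A9 seeds and 6.89 FPKM in NT seeds (log2 fold 1.38, 1.13 to 1.63). None of 78 genes for pentatricopeptide repeat proteins, which process organelle RNA, reached 5 FPKM, beside 6.21% of all genes of the A9 list.

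**Figure D3:**
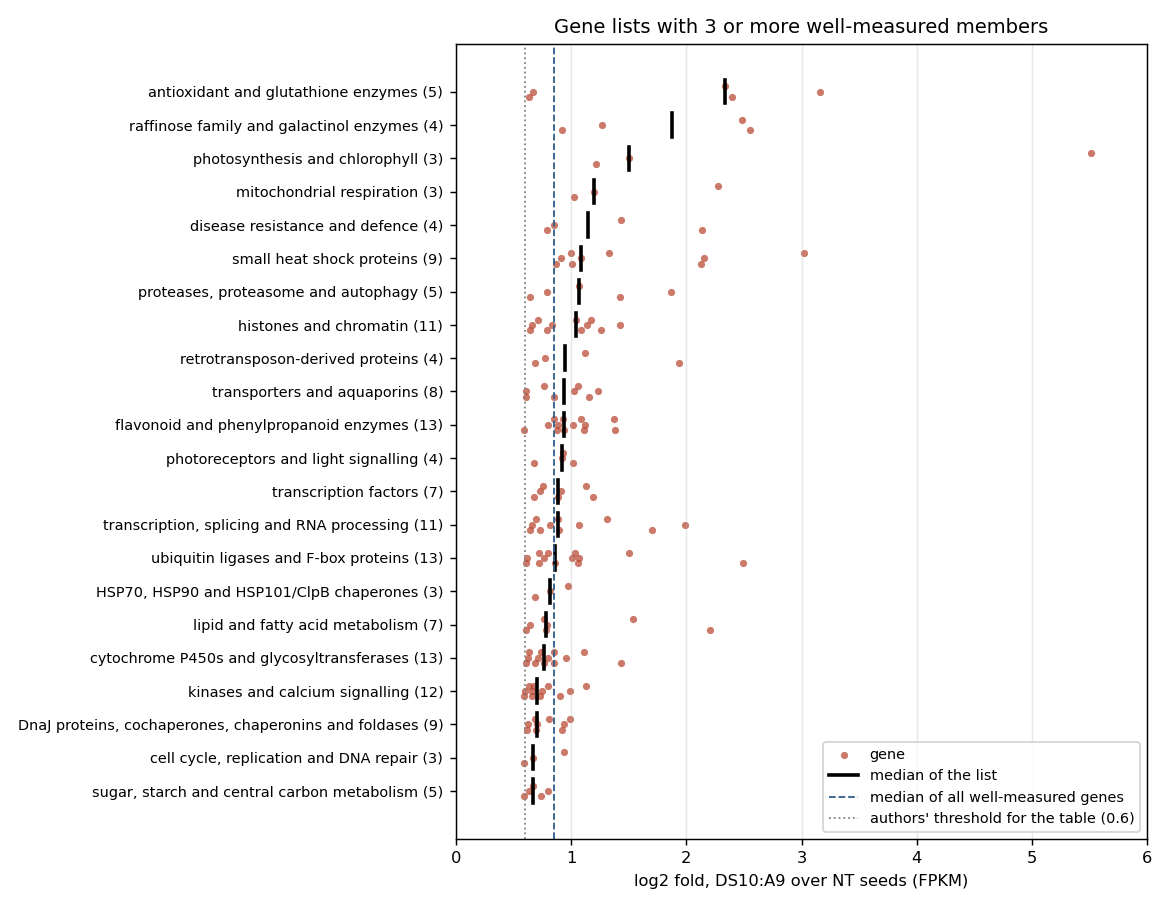
Log2 fold of DS10:A9 over NT seeds (horizontal) for each well-measured gene of the lists with 3 or more such members, 1 point a gene, with the number of genes in brackets; thick bars are list medians, the dashed line the median of all well-measured genes (0.85) and the dotted line the authors' threshold. The medians run from 0.67 for sugar, starch and central carbon metabolism to 2.33 for antioxidant and glutathione enzymes, and most lists lie within 0.3 of the dashed line. Both ends depend on the setting, as the first is 1.06 at a minimum of 1 FPKM, and with genes of the same description counted once the second is 1.501 and photosynthesis (3.37) the highest.

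Light perception was represented by transcripts of moderate level. The 3 genes described as phytochrome A1, a receptor for far-red light, had 12.03, 11.24 and 10.04 FPKM in DS10:A9 seeds (gene_22791, gene_2752 and gene_22797), against 6.31, 5.95 and 4.96 FPKM in NT seeds. Their log2 folds of 0.92 to 1.02 had overlapping counting intervals. Their gene models were 1531, 3524 and 1731 bases long, in the same order, so the shorter ones may stand for parts of a gene. Whether all 3 are separate genes was not tested. HY5 (gene_78854), the bZIP factor that promotes light responses of seedlings, had 9.29 FPKM in DS10:A9 seeds and 5.80 FPKM in NT seeds (log2 fold 0.68, 0.20 to 1.16). Of 18 genes in the list for photoreceptors and light signalling, these 4 were well measured.

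Enzymes of phenylpropanoid and flavonoid synthesis formed 1 of the largest groups, with 13 well-measured genes of 62 (21.0%, beside 6.21% of the list). All 13 had counting intervals above 0 and 6 had a log2 fold of at least 1, beside 85.4% and 35.6% of all well-measured genes. These enzymes belong to some steps of the pathway, among them its entry, phenylalanine ammonia-lyase, then chalcone synthase and flavanone 3-hydroxylase. Further steps are flavonol synthase, dihydroflavonol reductase and the glucosyltransferase that completes anthocyanins. The 2 chalcone synthase 1 genes had nearly equal values, with 29.2 FPKM in DS10:A9 seeds and 11.3 FPKM in NT seeds for gene_5201, and 28.5 FPKM in DS10:A9 seeds and 10.98 FPKM in NT seeds for gene_77491. Such near-identical copies may share fragments, and how these were divided between them was not tested. The 3 phenylalanine ammonia-lyase genes had 11.4 to 12.8 FPKM in DS10:A9 seeds and 6.05 to 7.58 FPKM in NT seeds, at log2 folds from 0.59 to 1.08. Flavanone 3-hydroxylase (gene_819) had 11.1 FPKM in DS10:A9 seeds and 5.13 FPKM in NT seeds. Family 73C UDP-glycosyltransferases added 5 genes, with 7.40 to 22.9 FPKM in DS10:A9 seeds, 4.61 to 14.0 FPKM in NT seeds and log2 folds of 0.63 to 0.74.

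Photosynthesis had 3 well-measured genes of 24 (12.5%, beside 6.21% of all genes of the list). Their median log2 fold of 1.503 was 3.37 with genes of the same description counted once. The 2 genes for the photosystem II 10 kDa polypeptide had 52.3 FPKM (gene_38985) and 47.0 FPKM (gene_70553) in DS10:A9 seeds, against 22.5 and 16.6 FPKM in NT seeds. RuBisCO activase (gene_62894), the chaperone-like ATPase that frees the active site of the carboxylase, had 5.49 FPKM in DS10:A9 seeds and 0.12 FPKM in NT seeds. Its log2 fold of 5.52 rests on 2 fragments in the NT library and has an interval of 3.65 to 8.61.

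Protein breakdown was covered by low transcripts. In the list for proteases, proteasome and autophagy, 5 of 51 genes were well measured (9.8%, beside 6.21% of all genes of the A9 list), at 5.71 to 8.39 FPKM in DS10:A9 seeds and 2.30 to 4.32 FPKM in NT seeds. The FtsH protease gene_22233, of the family that clears damaged membrane proteins in plastids, had 8.39 FPKM in DS10:A9 seeds and 2.30 FPKM in NT seeds (log2 fold 1.87, 1.49 to 2.24). Proteasome activator subunit 4 (gene_39116) had 7.93 FPKM in DS10:A9 seeds and 2.95 FPKM in NT seeds. The list of ubiquitin ligases and F-box proteins had 13 well-measured genes of 112 (11.6%), with the ubiquitin activating enzyme gene_57629 counted among them. The counting interval reached 0 in 4 of the 13, beside 43 of all 295 genes. By level, the highest member was the RKP ligase gene_71554, with a log2 fold of 0.61 and an interval of -0.39 to 1.64. It was followed by the RHF1A ligase gene_64298 (log2 fold 0.86) and the F-box protein gene_34923 (0.80). Both genes for the ligase XBAT35 (gene_53883 and gene_82464) stood lower and had log2 folds of 1.06 and 1.07.

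Signalling and membrane transport had shares of well-measured genes near the 6.21% of all genes of the list. Of 220 genes for kinases and calcium signalling, 12 were well measured (5.45%), with a median log2 fold of 0.70. The highest of them, gene_73802, described as the histidine kinase CKI1, had 41.0 FPKM in DS10:A9 seeds and 24.5 FPKM in NT seeds. Both RJ4-type annexins, calcium-dependent membrane-binding proteins, had 42.3 FPKM in DS10:A9 seeds, against 25.7 FPKM (gene_28542) and 20.6 FPKM (gene_65511) in NT seeds. Transporters and aquaporins had 8 of 149 (5.37%), among them the plasma membrane water channels gene_35925 with 10.1 FPKM in DS10:A9 seeds and 4.30 FPKM in NT seeds, and gene_23289 with 5.49 FPKM in DS10:A9 seeds and 2.63 FPKM in NT seeds. Highest of the 8 was the potassium transporter gene_7691, with 10.85 FPKM in DS10:A9 seeds and 7.11 FPKM in NT seeds (log2 fold 0.61). An anion transporter, gene_79988, had 8.34 FPKM in DS10:A9 seeds and 5.48 FPKM in NT seeds (0.61).

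Hormone genes had 2 of 75 (2.67%, beside 6.21% of all genes of the A9 list), which were SRK2E (gene_16660), the kinase that carries the abscisic acid signal in Arabidopsis guard cells, and the protein phosphatase 2C 34 (gene_72740). Transcription factors had 7 of 142 (4.93%), led by the WUSCHEL-related homeobox 11 gene_52863 with 15.6 FPKM in DS10:A9 seeds and 9.40 FPKM in NT seeds.

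Among lipid genes, 7 of 86 were well measured (8.14%, beside 6.21% of all genes of the A9 list), and the highest stood apart. The lipoxygenase homology domain protein gene_87034 had 72.9 FPKM in DS10:A9 seeds and 15.8 FPKM in NT seeds (log2 fold 2.201, 1.94 to 2.47). Of the genes with no name in the seed line, gene_84014 (95.6 FPKM in DS10:A9 seeds and 33.8 FPKM in NT seeds) and gene_17001 (45.3 FPKM in DS10:A9 seeds and 13.2 FPKM in NT seeds) carry that same description in their seedling lines, with log2 folds of 1.501 and 1.78. Such domains bind lipids or membranes and do not by themselves make an enzyme. The 3-ketoacyl-CoA synthase 4 gene_71620, of very-long-chain fatty acid synthesis, had 18.8 FPKM in DS10:A9 seeds and 10.95 FPKM in NT seeds.

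Defence products had 4 of 62 (6.45%, beside 6.21% of all genes of the A9 list), with proteinase inhibitor II (gene_27772) at 6.25 FPKM in DS10:A9 seeds and 1.42 FPKM in NT seeds. Cell wall enzymes had 2 of 63 (3.17%) and retrotransposon-derived proteins 4 of 60 (6.67%). The single well-measured gene of 30 (3.33%) for vesicle traffic and the cytoskeleton was the reticulon gene_16276. Its log2 fold of 2.01 rests on 3 fragments in the NT library and has an interval of 0.14 to 4.46.

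The largest folds belonged to genes that were nearly silent in NT seeds. The minimum fixed this, since all 295 genes reached 5 FPKM in DS10:A9 seeds and only 133 also in NT seeds, so that a gene near 0 in NT seeds could enter only with a large fold. An undescribed gene, gene_55348, had 17.1 FPKM in DS10:A9 seeds and 0.11 FPKM in NT seeds, which correspond to 171 fragments and 1 fragment. Its log2 fold was 7.28, with a counting interval of 4.87 to 12.68. The gene with the next identifier, gene_55347, described as a HORMA domain protein, of a family that acts on meiotic chromosomes and in spindle control, had 9.66 FPKM in DS10:A9 seeds and 0.59 FPKM in NT seeds (log2 fold 4.03, 3.16 to 5.06). Whether these 2 genes lie side by side is not given in the sources used here. Another gene with no name in its seed line, gene_38449, had 14.1 FPKM in DS10:A9 seeds and 0.13 FPKM in NT seeds, or 345 and 3 fragments (log2 fold 6.77, 5.24 to 9.09). Its seedling line names a HORMA domain protein among other descriptions, and all 3 genes share an orthology annotation, that of a CTD small phosphatase-like protein.

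Only 6 of the 295 genes had a log2 fold of 3 or more, and they were these 3 genes, RuBisCO activase, the glutathione S-transferase gene_68297 and the sHSP gene_25232. Of the 6, gene_25232 was the only one above 1 FPKM in NT seeds. Large folds also occurred on short gene models with few fragments. The undescribed gene_45351, of 174 bases, had 8 fragments in DS10:A9 seeds and 1 fragment in NT seeds, and its interval around a log2 fold of 2.90 reached 0. The ubiquitin activating enzyme gene_57629, which its name placed in the list of ubiquitin ligases, had 6 fragments in DS10:A9 seeds and 1 fragment in NT seeds, with an interval of -0.57 to 7.99.

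**Figure D4:**
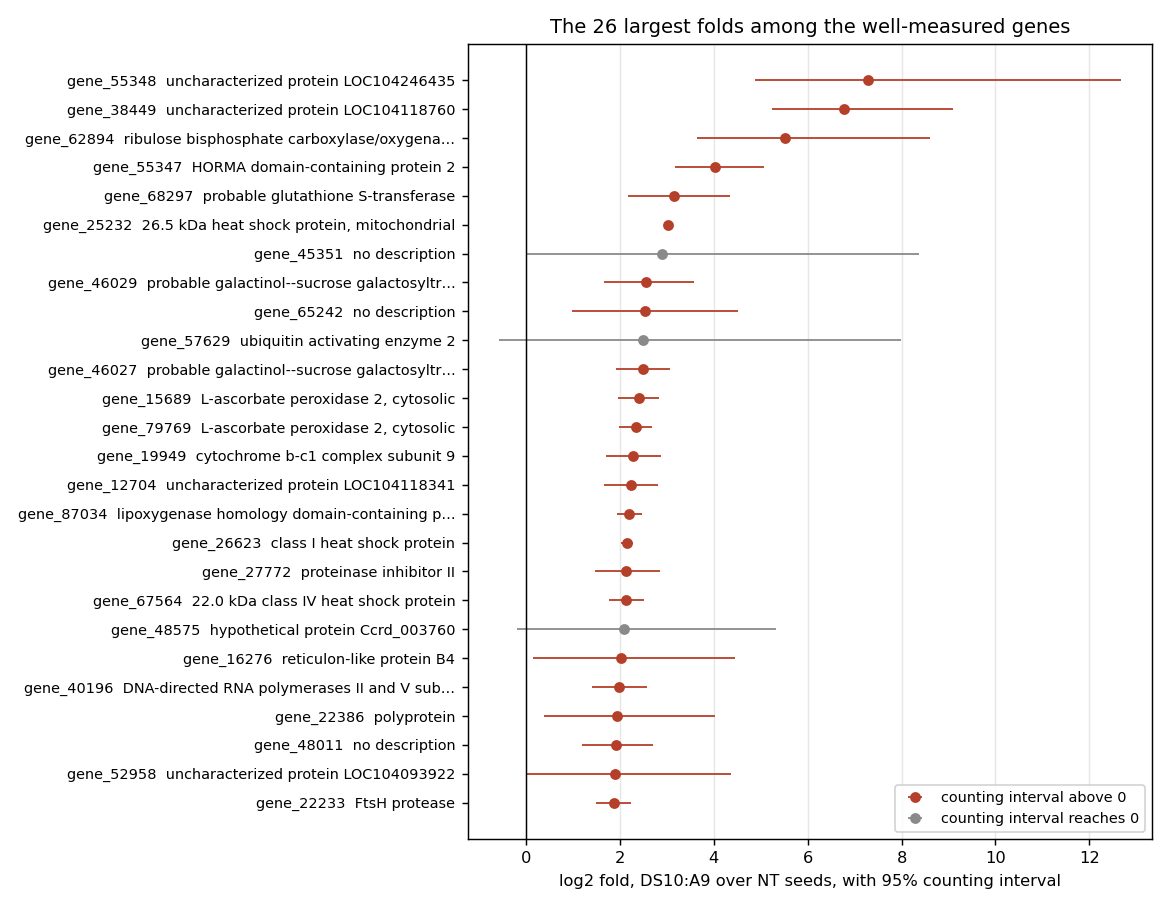
The 26 largest log2 folds of DS10:A9 over NT seeds among the well-measured genes, largest at the top, each with its 95% counting interval (bars). Intervals are wide for genes with few NT fragments, such as gene_55348 (4.87 to 12.68), and narrow for abundant ones, such as gene_25232 (2.94 to 3.09); 3 genes, in grey, have intervals that reach 0.

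The 43 genes whose counting interval reached 0 had short models and few fragments. Their median length was 382 bases and their median fragments over both libraries 42, against 1338 bases and 220.5 fragments for the 252 genes whose interval lay above 0. Of 20 gene models shorter than 300 bases, 6 had intervals above 0. At the minimum itself, the last genes inside were gene_7720, with 5.03 FPKM in DS10:A9 seeds and 2.92 FPKM in NT seeds, and gene_15820, with 5.02 FPKM in DS10:A9 seeds and 2.95 FPKM in NT seeds. The first ones outside were gene_5418, with 4.96 FPKM in DS10:A9 seeds and 2.25 FPKM in NT seeds, and gene_29610, with 4.95 FPKM in DS10:A9 seeds and 1.96 FPKM in NT seeds.

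Tobacco is an allotetraploid, and many products were described for more than 1 gene. Of the described genes, 57 shared their description with another well-measured gene, in 26 groups of 2 to 4 genes. Within 22 of these groups all counting intervals overlapped, and the median gap between the smallest and the largest log2 fold of a group was 0.17. The intervals do not cover how fragments shared between copies were divided. The intervals did not overlap in 4 groups, which were the 26.5 kDa mitochondrial sHSPs, BAG6, cytochrome b-c1 subunit 9 and the ROOT HAIR DEFECTIVE 3 homologs, dynamin-like proteins that shape the endoplasmic reticulum. For the last of these, gene_32185 had 33.8 FPKM in DS10:A9 seeds and 12.4 FPKM in NT seeds (log2 fold 1.44), and gene_32186 had 15.6 FPKM in DS10:A9 seeds and 8.21 FPKM in NT seeds (0.92).

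Another NT seed library gave a second view of the reference level. It was listed with the DS10:A4a seeds, in separately normalized lists of genes chosen as higher or lower in DS10:A4a seeds, and it was sequenced more deeply, at 16280000 fragments. Those lists held 108 of the 295 genes (36.6%, against 55.1% of all 4753), of which 60 were listed as higher and 48 as lower with A4a. Selection for those lists used this NT library, so its levels are not a free sample of NT seeds, and 34 of the 108 genes had another transcript length there. The labels do not say which of the 2 NT seed samples belongs to which list.

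Values in the other NT library were mostly above those of the first. The genes of the A9 list had been chosen against the first NT library, and that choice favoured low values there. The log2 ratio of the other NT library over the first had a median of 0.29 over the 108 genes, was above 0 for 74 of them and ranged from -3.52 to 1.91. The 2 NT libraries thus differed by a median of 0.39 in either direction on the log2 scale. DS10:A9 seeds were above the other NT library for 98 of the 108 genes (90.7%, against 74.1% of the 2618 genes of the A9 list that were in an A4a list), and the counting interval lay above 0 for 78 of them (72.2%, against 16.4% of the 2618). All 295 genes had reached the minimum through DS10:A9 seeds and were listed for a higher value there. A value above another library was therefore largely fixed by that choice, and these shares are not an independent check. The interval shares also follow the number of fragments. The median log2 fold of DS10:A9 was 0.80 against the other NT library and 0.96 against its own. At a log2 fold of 1 or more there were 35 genes against the other NT library and 52 against its own.

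The large folds were similar against both NT libraries for some genes only. Of 12 genes with a log2 fold of 2 or more over their own NT library, 7 also had one over the other, and 5 had 0.88 to 1.72 there. The sHSP gene_25232 had 1133 FPKM in DS10:A9 seeds, against 139.9 FPKM in its own and 145 FPKM in the other NT library. For gene_38449 the values were 14.1 FPKM in DS10:A9 seeds, against 0.13 FPKM in its own and 0.16 FPKM in the other NT library. For RuBisCO activase they were 5.49 FPKM in DS10:A9 seeds, against 0.12 FPKM in its own and 0.08 FPKM in the other NT library. For ascorbate peroxidase gene_79769 they were 31.3 FPKM in DS10:A9 seeds, against 6.20 FPKM in its own and 6.63 FPKM in the other NT library. Other genes depended on the NT library. Proteinase inhibitor II (gene_27772) had 6.25 FPKM in DS10:A9 seeds, against 1.42 FPKM in its own and 3.39 FPKM in the other NT library, and the class IV sHSP gene_67564 had 19.9 FPKM in DS10:A9 seeds, against 4.55 FPKM in its own and 7.10 FPKM in the other NT library. The undescribed gene_65242 had 7.93 FPKM in DS10:A9 seeds, against 1.38 FPKM in its own and 4.06 FPKM in the other NT library. The cytochrome b-c1 gene_19949 had 32.4 FPKM in DS10:A9 seeds, against 6.67 FPKM in its own and 9.85 FPKM in the other NT library. Among the smaller folds, the RNA polymerase subunit gene_40221 had 55.7 FPKM in DS10:A9 seeds, against 17.1 FPKM in its own and 37.2 FPKM in the other NT library, and WUSCHEL-related homeobox 11 had 15.6 FPKM in DS10:A9 seeds, against 9.40 FPKM in its own and 15.5 FPKM in the other NT library. The uncharacterized gene_46117 had 13.5 FPKM in DS10:A9 seeds, against 7.87 FPKM in its own and 20.4 FPKM in the other NT library. For gene_2226 the other NT library was the lower one, with 23.5 FPKM in DS10:A9 seeds, against 12.1 FPKM in its own and 1.06 FPKM in the other NT library.

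**Figure D5:**
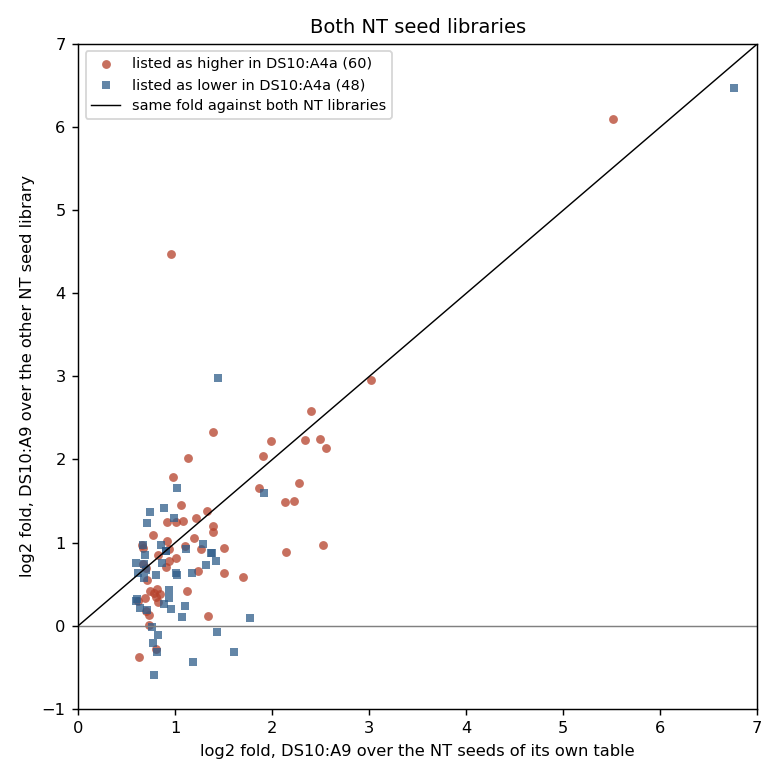
Log2 fold of DS10:A9 seeds over the other NT seed library (vertical) against that over the NT seeds of its own list (horizontal) for the 108 well-measured genes listed with DS10:A4a, 60 listed as higher (circles) and 48 as lower (squares). Of the 12 folds of 2 or more on the horizontal axis, 7 are also 2 or more on the vertical axis and 5 lie at 0.88 to 1.72, whereas folds near 1 scatter between -0.60 and 4.47 on the vertical axis.

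In DS10:A4a seeds the same genes stood on both sides of their NT seeds, as the choice of the lists fixed. All 7 listed sHSPs and both BAG6 genes were listed as higher there, for example gene_70529 with 431 FPKM in DS10:A4a seeds and 205 FPKM in the NT seeds listed with them. Of the 12 flavonoid and phenylpropanoid genes present, 11 were listed as lower and flavanone 3-hydroxylase as higher. Counting intervals lay above 0 for DS10:A9 over NT seeds and below 0 for DS10:A4a over its NT seeds for 33 of the 48 genes in the lower list (68.8%), against 6.09% of the 1298 genes of the A9 list in it. Both directions were fixed by the lists, and these shares follow the number of fragments. In the A9 list the interval of DS10:A9 over NT seeds lay above 0 for 7.09% of genes under 1 FPKM and 75.5% at 5 to 10 FPKM. Of the 295 genes, 55.6% of those in an A4a list were in the one for higher genes, against 42.9% of all A4a-listed genes at 5 FPKM or more.

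The seed labels could be checked only in part. The A9 list held 1 gene for storage globulins, albumins or oleosins, at 0.05 FPKM in DS10:A9 seeds and listed at 0 in NT seeds, none described as a late embryogenesis protein, and 1 dehydrin (gene_61406) at 0.18 FPKM in DS10:A9 seeds and listed at 0 in NT seeds. The lists with DS10:A4a held 12 and 4 such genes, with up to 14.7 and 20.5 FPKM in DS10:A4a seeds, and up to 27.1 and 4.65 FPKM in their NT seeds. Of the leaf markers, 11 chlorophyll a/b-binding genes were in the A9 list, none was well measured, and the highest had 2.85 FPKM in DS10:A9 seeds, against at most 0.55 FPKM in NT seeds. The lists with DS10:A4a held 30 such genes, with up to 38.0 FPKM in DS10:A4a seeds and 56.05 FPKM in their NT seeds, above the highest seed marker of those lists. No RuBisCO small chain was in the A9 list, and the lists with DS10:A4a held 4, at up to 2.80 FPKM in DS10:A4a seeds and 1.31 FPKM in their NT seeds. The share of leaf-type or embryo-type transcripts in these folds was not tested.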

How the data were processed

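RNA of imbibed tobacco seeds was sequenced as pooled libraries, 1 per condition, on an Illumina instrument. The authors made the deposited FPKM values by mapping clean reads with HISAT (0.1.6) and assembling transcripts with StringTie (1.04), then mapping to the merged transcriptome with Bowtie2 (2.2.5) and estimating levels with RSEM (1.2.12), as given in the submitters' processing notes. A value of 0.01 stands for 0. The authors' log2 fold and p-value columns hold their own comparisons and were not used. Transcript lengths in bases stand beside the FPKM. No column of per-sample values was left unmapped. Of the seedling lines only the protein descriptions were used, and the 2 overlap lists were not used.

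Log2 folds were computed from FPKM without a pseudocount. Depths and length offsets (64 and 69 bases) were recovered from whole-fragment steps of low FPKM values: 94.6% of 2613 DS10:A9 values and 86.1% of 1602 NT values were whole within 0.15 of a fragment. Counting intervals were exact 95% binomial intervals. Both were tested on simulated data with independent whole fragments for each gene and recovered the inputs. Fragments shared between similar copies, and the authors' choice of genes by their fold, were not simulated. The simulations therefore do not show how well the intervals cover for genes chosen in that way. With 1 library a side in each list no test between conditions was made; the other NT library is in separately normalized lists, and 1 library against 2 allows no exact permutation p below 0.33.

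Genes were grouped in 29 lists by words in the deposited seed-line descriptions, with gene_23903 and gene_78667 placed among the cochaperones by the names of uncharacterized proteins; patterns were adjusted after their matches were seen, and 8 further groupings were made then. The members and lists were chosen with earlier results of these data known. Genes named were the 15 highest and the 15 with the largest fold among described genes, genes out of the 3 highest of each list, all sHSPs, photoreceptors and heat stress factors, 3 undescribed genes by level and by fold, and the 2 on each side of the minimum. In several lists not all of the 3 highest are printed above. Further genes were named after their values were seen, as copies of those, for their orthology annotation, for their levels in the other NT library or as further list members. Alternatives were other minimum FPKM, pseudocounts, the length offset, short models, shared descriptions and the other NT library. Python 3.11.15, NumPy 2.4.6, pandas and SciPy 1.17.1 were used.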

Additional observations from a re-analysis of the deposited data

Results flagged for a closer look

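A set of 33 well-measured genes was higher in DS10:A9 than in NT seeds and lower in DS10:A4a than in the NT seeds listed with them, with counting intervals apart from 0 in both (68.8% of the 48 well-measured genes in the lower list, against 6.09% of all 1298 genes of the A9 list in it). Against the other NT library, the one used for DS10:A4a, the interval of DS10:A9 lay above 0 for 21 of the 33 and not for 12, and DS10:A9 was lower for 6, among them gene_46117 (log2 fold -0.60) and gene_64914 (-0.44) with intervals below 0. The opposite directions follow from the choice of the lists, the 2 comparisons use different NT libraries, and the difference between them was not tested. Shares of genes with intervals apart from 0 also follow the number of fragments, so the contrast with all 1298 genes is not a result about the 33. The set includes both chalcone synthase 1 genes, 2 phenylalanine ammonia-lyase genes, HY5 and both genes described as Mediator subunit 37a. For gene_5201 the values were 29.2 FPKM in DS10:A9 seeds and 11.3 FPKM in NT seeds, and 4.58 FPKM in DS10:A4a seeds and 15.9 FPKM in NT seeds. For gene_6664 they were 83.1 FPKM in DS10:A9 seeds and 51.3 FPKM in NT seeds, and 21.8 FPKM in DS10:A4a seeds and 52.2 FPKM in NT seeds.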

How the results depend on the processing

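The number and the median log2 fold of the well-measured genes depended on the minimum level, because the deposited list is mostly of low genes. A minimum of 1 FPKM gave 1440 genes with a median of 1.02, of which 750 had counting intervals above 0. A minimum of 10 FPKM gave 132 genes, 129 of them with intervals above 0. With no minimum there were 4753 genes with a median of 1.09 over those above 0 in NT seeds, and with 5 FPKM required in both libraries 133 genes with a median of 0.80. A pseudocount of 1 gave a median of 0.74 and 66 genes, in place of 105, with a log2 fold of 1 or more. The other settings tried left these values in their range, with 266 intervals above 0 without the length offset and 88 genes at a log2 fold of 1 or more with the other NT library. List medians of few genes moved most. With genes of the same description counted once, the median log2 fold was 1.73 in place of 1.08 for sHSPs, 1.501 in place of 2.33 for antioxidant enzymes, 1.26 in place of 1.88 for raffinose enzymes and 3.37 in place of 1.503 for photosynthesis. A minimum of 10 FPKM gave the same antioxidant and raffinose values, and 1.93 in place of 0.95 for retrotransposon proteins. A minimum of 1 FPKM gave 1.06 in place of 0.67 for central carbon metabolism, 1.202 in place of 0.83 for hormones and 1.07 in place of 2.01 for vesicle traffic. The other list medians moved less, and the sign of all was fixed by the choice of the genes. The limit to genes of 50 or more fragments and to equal lengths was chosen after the data were seen and left 241 intervals above 0 and 67 genes above the other NT library. No paired analysis was possible because each condition has 1 pooled library and the labels give no replicate numbers. Each fold rests on 1 library a side, and intervals cover counting error only.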

Other observations

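Undescribed genes made up 100 of the 295, and 39 of them carried an orthology annotation. The undescribed gene_12704 had 7.06 FPKM in DS10:A9 seeds, against 1.51 FPKM in its own and 2.50 FPKM in the other NT seed library, and 23.8 FPKM in DS10:A4a seeds. The GDSL-type esterase gene_42058 had 7.26 FPKM in DS10:A9 seeds and 2.50 FPKM in NT seeds (log2 fold 1.54, 1.21 to 1.88), and the salicylic acid-binding protein gene_36583 had 10.1 FPKM in DS10:A9 seeds, against 3.72 FPKM in its own and 1.28 FPKM in the other NT seed library. These genes were picked after their values were seen.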
